A study of Mus musculus with 18 samples.

Results

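The MHC class I antigen presentation genes examined here were 10 named genes, taken by symbol from the 21959 genes listed for mouse embryonic fibroblasts (MEFs) and the 51826 listed for liver. They were the heavy chain genes *H2-K1*, *H2-D1*, *H2-Q2*, *H2-Q4* and *H2-T23*, the light chain gene *B2m*, the transporter genes *Tap1* and *Tap2*, and the immunoproteasome genes *Psmb8* and *Psmb9*. All 10 were listed in both tissues, and 9 of them lie on chromosome 17, with *B2m* on chromosome 2. The group was chosen by values of these data, since *H2-Q2* entered it for its difference between genotypes in liver with the replicate number as a block, so the liver values are given as a description. RNA-seq was compared between RepB-/- mice, which carry a CRISPR deletion of repeat B of the noncoding RNA gene *Xist*, and WT mice, with 3 libraries per genotype in each tissue (12 libraries). The labels call the MEF libraries a primary MEF cell line and give tail as their tissue, and the animals of the study were ICR mice, an outbred stock. The study uses RepB-/- for homozygous females, which it compares with WT females. The age at which livers were taken, and whether the replicates came from separate animals or cultures, are not given in the sources used here, so the p-values measure the spread between these libraries, which may be technical.

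A class I molecule is a heavy chain paired with beta-2 microglobulin that shows a short peptide at the cell surface to CD8+ T cells and natural killer cells. The peptides are cut by the proteasome, whose catalytic subunits are exchanged for *Psmb8*, *Psmb9* and *Psmb10* under interferon, and are carried into the endoplasmic reticulum by the TAP transporter. In mice *H2-K1* and *H2-D1* are classical heavy chains with broad expression, whereas *H2-Q2*, *H2-Q4* and *H2-T23* (the gene of Qa-1) are nonclassical ones.

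The sequence upstream of the start site is shown for 5 genes, the classical pair, the 2 nonclassical heavy chains on which the results turn, and the light chain. Each is the 250 bases before the RefSeq start in GRCm38.p6, read 5′ to 3′ in the direction of the gene. RefSeq lists *H2-K1* at 2 starts, of which the first in its table is shown. By the gene coordinates of the liver data, which start further upstream, the *H2-D1* window lies inside the gene. Those of *H2-Q2* and *H2-T23* lie partly inside it. *H2-K1* was read at chr17:34000348-34000597 (minus strand), *H2-D1* at chr17:35262844-35263093 (plus strand), *H2-Q2* at chr17:35342057-35342306 (plus strand), *H2-T23* at chr17:36032702-36032951 (minus strand) and *B2m* at chr2:122147437-122147686 (plus strand). Capitals mark matches on either strand to GGGATTCCC (an NF-kB site), to GAANNGAAA or AAANNGAAA (cores bound by interferon regulatory factors), to TGACG (the core of the X2 box) and to ATTGG (the inverted CCAAT of the Y box). No matches overlap in these 5 windows, and the motifs were chosen with the sequences in view.
H2-K1: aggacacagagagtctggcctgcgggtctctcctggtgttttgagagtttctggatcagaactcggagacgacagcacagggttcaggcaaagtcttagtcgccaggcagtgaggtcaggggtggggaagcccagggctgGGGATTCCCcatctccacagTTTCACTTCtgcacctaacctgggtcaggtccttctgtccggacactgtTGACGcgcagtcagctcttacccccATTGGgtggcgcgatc
H2-D1: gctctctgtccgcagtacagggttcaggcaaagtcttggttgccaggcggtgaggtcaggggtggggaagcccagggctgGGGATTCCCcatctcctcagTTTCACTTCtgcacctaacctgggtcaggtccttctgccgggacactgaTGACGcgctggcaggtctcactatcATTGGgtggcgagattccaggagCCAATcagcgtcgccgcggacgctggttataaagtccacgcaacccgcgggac
H2-Q2: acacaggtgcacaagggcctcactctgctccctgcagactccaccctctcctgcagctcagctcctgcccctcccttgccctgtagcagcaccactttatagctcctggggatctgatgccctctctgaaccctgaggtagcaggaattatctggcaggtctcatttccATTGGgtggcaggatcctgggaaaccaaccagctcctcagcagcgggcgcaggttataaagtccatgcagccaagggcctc
H2-T23: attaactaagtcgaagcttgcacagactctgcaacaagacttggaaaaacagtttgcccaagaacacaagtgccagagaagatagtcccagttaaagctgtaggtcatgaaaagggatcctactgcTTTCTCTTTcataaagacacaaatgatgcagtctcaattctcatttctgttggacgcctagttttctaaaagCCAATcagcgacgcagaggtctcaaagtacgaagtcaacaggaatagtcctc
B2m: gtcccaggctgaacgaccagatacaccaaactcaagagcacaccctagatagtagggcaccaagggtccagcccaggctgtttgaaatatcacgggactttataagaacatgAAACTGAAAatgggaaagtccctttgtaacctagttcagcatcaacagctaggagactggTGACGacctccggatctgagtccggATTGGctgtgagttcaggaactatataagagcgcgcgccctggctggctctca

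*H2-K1* and *H2-D1* each held GGGATTCCC, GAANNGAAA, TGACG and ATTGG. *H2-Q2* held ATTGG alone, starting 81 bases before its start site. *H2-T23* held AAANNGAAA and ATTGG, and *B2m* held these and TGACG. RefSeq gave a promoter for 9 of the 10 genes, not for *Tap2*. Among these 9, GGGATTCCC was in 2, AAANNGAAA in 2, GAANNGAAA in 3, TGACG in 6 and ATTGG in 8. Of 32851 mouse promoter windows of the same length, 0.301% held GGGATTCCC, 9.37% AAANNGAAA, 6.31% GAANNGAAA, 17.8% TGACG and 33.8% ATTGG. A match describes these letters in this window and is no evidence of binding.

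The RepB-/- MEF libraries held 20005541 to 20587556 counts on genes and the WT MEF libraries 11540344 to 16347806, without overlap. The liver libraries held 37682201 to 51542709. Levels are given as CPM, the counts scaled to library size with TMM factors. These factors ran from 0.958 to 0.968 in RepB-/- MEFs and from 1.01 to 1.08 in WT MEFs. The part of depth and scaling in the MEF results was not tested. The MEF table used here holds no row for *Xist*. In liver *Xist* stood at 290, 0.0794 and 662 CPM in RepB-/- replicates 1, 2 and 3 and between 323 and 558 CPM in WT, and counts per gene do not show the deleted repeat. The library labelled RepB-/- replicate 2 also carried 86.2 CPM of 4 Y-linked genes, against at most 0.0292 CPM in any other liver library. Its Y-linked and *Xist* counts go against a label for a homozygous female, so it is named here as the library labelled RepB-/- replicate 2, and liver results are also given without it. Replicate 1 of both genotypes stood apart in liver. Fetal liver markers summed to 6072 CPM in RepB-/- replicate 1 and 4819 CPM in WT replicate 1, and to between 14.7 and 61.7 CPM in the other 4 libraries. Fibroblast markers, led by *Col1a1*, summed to between 14544 and 17575 CPM in RepB-/- MEFs and between 9973 and 13094 CPM in WT, without overlap. Of 10 fibroblast markers 6 were called higher and 1 lower in RepB-/- MEFs, beside 19.4% and 19.7% of all genes tested. Their part in the MEF results was not tested. Hepatocyte markers such as *Alb* summed to between 90620 and 182975 CPM in every liver library.

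**Figure D1:**
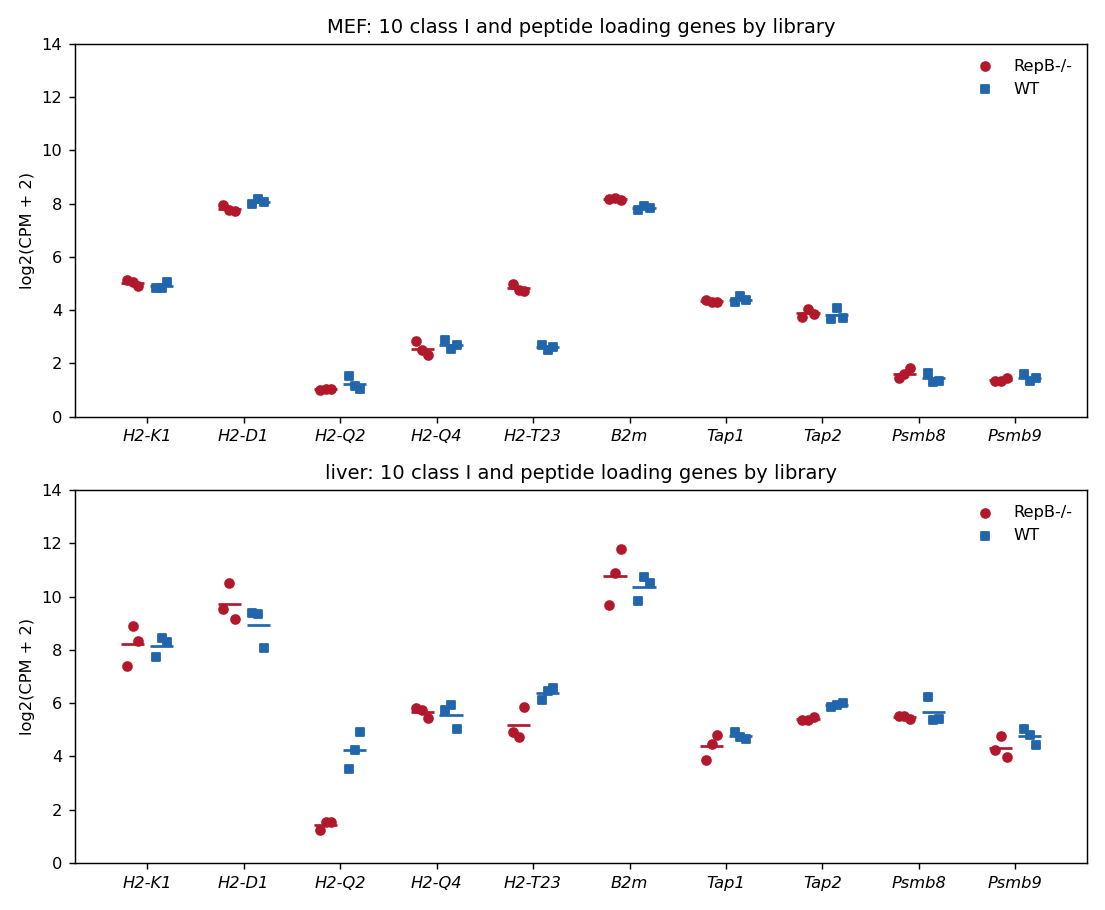
Level of each of the 10 genes in every library as log2(CPM + 2), MEFs above and liver below, with circles for RepB-/-, squares for WT and a bar at the mean of 3 libraries. In MEFs the genotypes lie furthest apart for *H2-T23*, and in liver for *H2-Q2*.

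In MEFs the nonclassical heavy chain *H2-T23* rose 6.45-fold in RepB-/- cells, *B2m* rose 1.26-fold and *H2-D1* fell 1.20-fold, while 6 other genes of the 9 tested did not pass the threshold. *H2-Q2* was too low to be tested. The comparison asks whether these autosomal genes differed between RepB-/- and WT, since *Xist* acts on the X chromosome. The stock is outbred, so inherited differences between the mice on chromosome 17 cannot be told apart here from the deletion. Their part in the MEF and liver values was not tested. The share called, 3 of 9, stood beside 39.1% called among all 13306 genes tested in MEFs (edgeR quasi-likelihood test, adjusted p under 0.05), with 2 higher beside 19.4% and 1 lower beside 19.7%. The median log2 fold change of the 9 genes was 0.05, beside 0.00030 over all genes tested. In bulk RNA fewer cells of a type and less RNA per cell cannot be told apart.

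*H2-T23* encodes the heavy chain of Qa-1, a ligand of the CD94/NKG2A receptor of natural killer cells. It stood at 29.8, 25.1 and 24.2 CPM in the RepB-/- MEFs and at 4.49, 3.71 and 4.10 CPM in WT. Every RepB-/- library was above every WT library, as was so in either direction for 52.2% of the genes tested. The log2 fold change was 2.69 ± 0.14 (SE, n = 3 per genotype), with an adjusted p of 2.8e-08 in edgeR. By size of the log2 fold change it ranked 189 of 13306 genes and by p it ranked 9. Leaving out single libraries moved it between 2.60 and 2.75.

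*B2m*, the light chain shared by the class I heavy chains, stood at 290, 292 and 279 CPM in RepB-/- MEFs and at 213, 240 and 228 CPM in WT. The groups did not overlap, and the log2 fold change was 0.34 ± 0.070 (SE, n = 3, edgeR adjusted p = 0.0021). *H2-D1*, the more abundant of the classical heavy chains here, stood at 244, 217 and 207 CPM in RepB-/- and at 253, 286 and 266 CPM in WT. Its highest RepB-/- library lay just under its lowest WT library. The log2 fold change was -0.27 ± 0.079 (SE, n = 3, edgeR adjusted p = 0.0162). The call was lost without RepB-/- replicate 2 (edgeR adjusted p = 0.0844), without RepB-/- replicate 3 (0.0912) and without WT replicate 2 (0.0606).

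*H2-K1*, the other classical heavy chain, overlapped between genotypes. It stood at 33.1, 31.2 and 27.9 CPM in RepB-/- MEFs and at 26.8, 26.3 and 31.5 CPM in WT, a log2 difference of 0.12 ± 0.10 (SE). *H2-Q4* overlapped as well, between 2.94 and 5.25 CPM in RepB-/- and between 3.77 and 5.45 CPM in WT. *H2-Q2* gave 0, 1 and 1 counts in RepB-/- MEFs and 11, 4 and 1 counts in WT. Pooled over libraries and scaled to their totals, the RepB-/- to WT ratio of *H2-Q2* was 0.0899 (95% exact interval 0.0100 to 0.383, counting error only), and 11 of its 16 WT counts came from replicate 1.

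The transporter subunits *Tap1* and *Tap2* differed little between the MEF genotypes. *Tap1* stood between 17.7 and 18.8 CPM in RepB-/- and between 17.6 and 20.96 CPM in WT, with a log2 difference of -0.08 ± 0.11 (SE). The deposited FPKM, a measure per gene length, are not scaled by the TMM factors. By FPKM *Tap1* was lower in RepB-/- without overlap, at 3.29, 3.12 and 3.11 against 3.47, 3.86 and 3.52. *Tap2* gave 0.05 ± 0.15 (SE). The immunoproteasome subunits were near the lower limit of the test, with at most 30 counts in a library for *Psmb8* and 15 for *Psmb9*. Their log2 differences were 0.64 ± 0.46 and -0.30 ± 0.44 (SE), and at this depth no difference was detected.

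**Figure D2:**
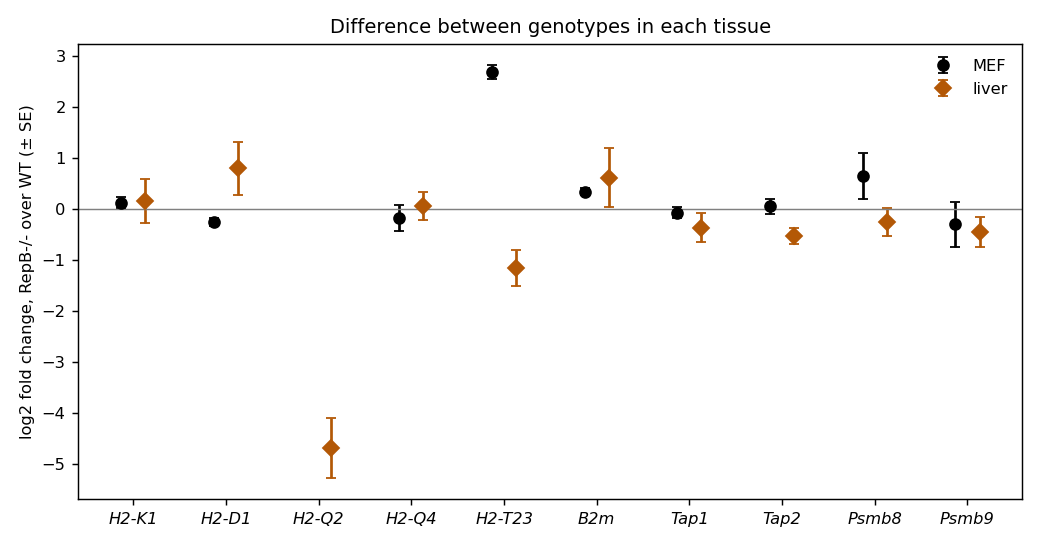
Log2 fold change of RepB-/- over WT with its SE for each gene, circles for MEFs and diamonds for liver (3 libraries per genotype, *H2-Q2* not tested in MEFs). *H2-T23* lies at 2.69 in MEFs and at -1.17 in liver.

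In liver *H2-Q2* had the lowest RepB-/- level relative to WT of the 10 genes, and *H2-T23* and *Tap2* also lay lower in every RepB-/- library than in any WT library. Values of this contrast chose *H2-Q2*, so the calls in it are given as a description and nothing is read from their counts. On the CPM scale libraries did not overlap for 3 of the 10 genes, beside 8.05% of the 16080 genes tested in liver. Without a block 0 of the 10 genes and 0.0373% of all genes tested were called in edgeR (3 of the 10 and 3.12% of all at an unadjusted p under 0.05). With the replicate number as a block, the setting that chose it, *H2-Q2* was called by construction, and 0.0498% of all genes were. A term for replicate 1 called 0.056% of all genes and DESeq2 0.423%, both from the contrast that chose *H2-Q2*.

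*H2-Q2* gave 17, 46 and 30 counts in RepB-/- liver and 430, 661 and 1337 counts in WT. On the CPM scale this was 0.336, 0.913 and 0.875 in RepB-/- and 9.59, 17.1 and 28.2 in WT. The lowest WT library, replicate 1 with its fetal markers, was still above every RepB-/- library. The log2 fold change was -4.69 ± 0.59 (SE, n = 3), or 25.9-fold lower in RepB-/-, and ranged from -5.00 to -4.23 as single libraries were left out. Without both replicate 1 livers it was -4.65, and without the library labelled RepB-/- replicate 2 it was -4.94. Of the 50-base stretches of the *H2-Q2* transcripts, 16.1% also occur in another gene, mostly *H2-Q1*, and 2.56% of the 150-base stretches do. *H2-Q1* itself stood at 16.7, 45.2 and 15.2 CPM in RepB-/- liver and at 16.2, 28.5 and 14.2 CPM in WT, and the groups overlapped.

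*H2-T23* stood at 28.4, 24.6 and 56.5 CPM in RepB-/- liver and at 67.0, 86.4 and 92.4 CPM in WT, which is the opposite order to MEFs. The log2 fold change was -1.17 ± 0.35 (SE, n = 3), and -0.95 without the library labelled RepB-/- replicate 2. RepB-/- replicate 3 was the highest of its group and lay nearest to WT replicate 1, the lowest of the other. *Tap2* varied little within genotypes, with 38.8, 39.8 and 43.2 CPM in RepB-/- and 55.4, 58.7 and 61.8 CPM in WT, and a log2 fold change of -0.53 ± 0.16 (SE), or -0.52 without that library. Its partner *Tap1* overlapped on the CPM scale, between 12.7 and 26.1 CPM in RepB-/- and between 22.98 and 28.3 CPM in WT. By the deposited FPKM, not scaled by the TMM factors, it did not overlap, at 4.56, 6.15 and 7.34 in RepB-/- and 10.4, 8.43 and 7.56 in WT.

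The classical heavy chains and the light chain overlapped between genotypes in liver. *H2-D1* stood at 732, 1454 and 566 CPM in RepB-/- and at 670, 647 and 267 CPM in WT. It was higher in RepB-/- for each of the 3 replicate numbers, with a log2 difference of 0.80 ± 0.52 (SE) without the block and 0.80 ± 0.30 with it. Without the library labelled RepB-/- replicate 2, the highest of the 6, it was 0.30 ± 0.50 (SE). Replicates 2 and 3 correlated more with another number than with their own, so the block is no firm pairing. *B2m* stood at 828, 1877 and 3531 CPM in RepB-/- and at 921, 1729 and 1443 CPM in WT, and replicate 1 was the lowest library of both genotypes. *H2-K1* was also lowest in replicate 1 of both genotypes, at 165 CPM in RepB-/- and 214 CPM in WT. *H2-Q4*, *Psmb8* and *Psmb9* overlapped, with log2 differences of 0.06 ± 0.28, -0.26 ± 0.28 and -0.46 ± 0.29 (SE). Erythroid markers, led by *Hba-a1*, summed to 4689, 2326 and 1475 CPM in RepB-/- liver and to 1743, 374 and 309 CPM in WT. They were higher in RepB-/- for each of the 3 replicate numbers. All 10 erythroid markers tested had log2 differences above 0, beside 51.6% of all genes, with a median of 1.86 beside 0.01. Without a block 0 of them were called, beside 0.0373% of all genes, and 1 with it, beside 0.0498%. Kupffer cell and macrophage markers summed to between 512 and 805 CPM in RepB-/- and between 539 and 1187 CPM in WT, and leukocyte markers to between 113 and 167 CPM and between 82.6 and 151 CPM. No marker of these 3 lists was at 0 counts in liver, and their part in the class I values was not tested.

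**Figure D3:**
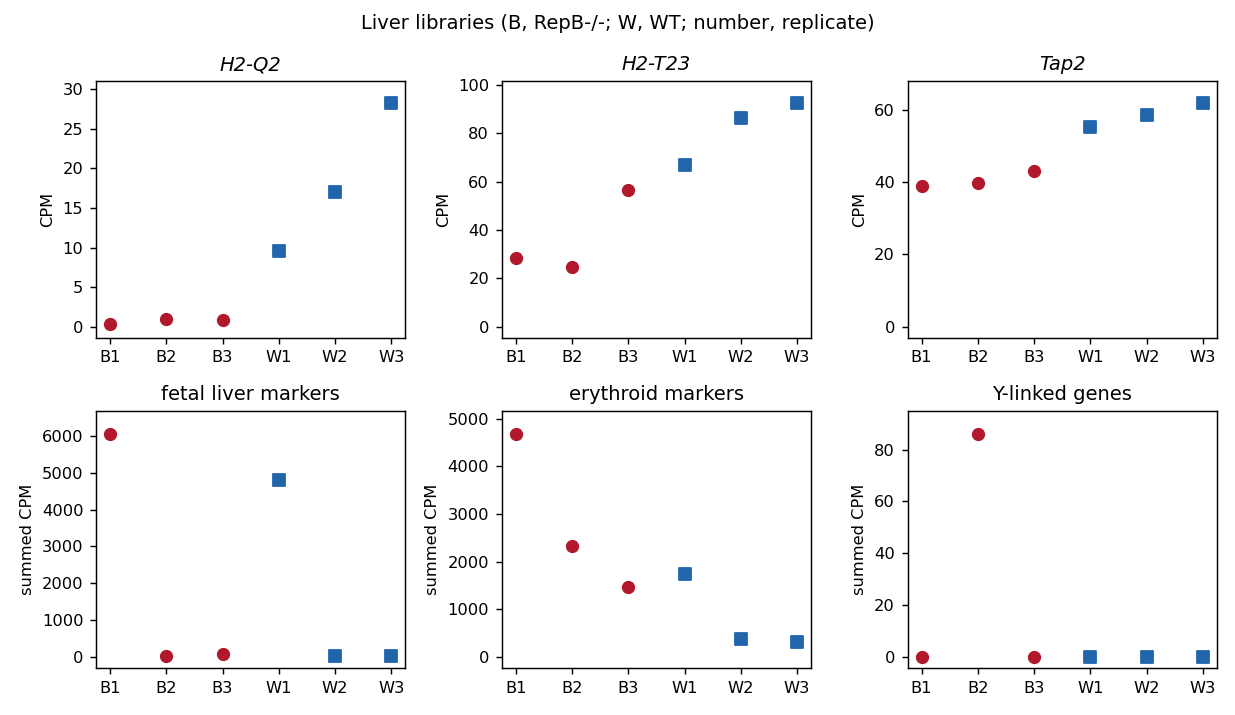
CPM of *H2-Q2*, *H2-T23* and *Tap2* (top) and summed CPM of fetal liver markers, erythroid markers and Y-linked genes (bottom) in each of the 6 liver libraries, with circles for RepB-/- and squares for WT. The 3 genes are lower in every RepB-/- library, while fetal markers are high in replicate 1 of both genotypes and Y-linked counts lie in the library labelled RepB-/- replicate 2.

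The genotype effect on *H2-T23* differed between tissues. In a joint fit of all 12 libraries the liver effect minus the MEF effect was -3.84 ± 0.41 (SE) on the log2 scale (edgeR interaction term, adjusted p = 0.0151), and 1 of the 10 genes was called beside 0.388% of the 15208 genes tested. The liver side of this difference comes from the contrast that chose *H2-Q2*. With the block it was -3.92 (adjusted p = 0.0099), with 1.26% of all genes called, and without both replicate 1 livers it was -3.86 (adjusted p = 0.0023). Without the liver library labelled RepB-/- replicate 2 it was -3.68 (adjusted p = 0.0169). The call was lost when MEF RepB-/- replicate 1 or 2, or MEF WT replicate 1 or 2, was left out, with adjusted p between 0.0504 and 0.0664 in edgeR and the difference between -3.90 and -3.75. Both tables were made on different genome annotations, GRCm39 coordinates for MEFs and GRCm38 for liver, and the interaction was fitted on the genes they share. *H2-D1* pointed the other way, at 1.09 ± 0.56 (SE), and did not pass (adjusted p = 0.415).

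Per length of transcript, *B2m* was the most abundant of the 10 genes and *H2-D1* the second in both tissues and genotypes. In WT MEFs the deposited FPKM were 274 ± 7.1 (SD, n = 3) for *B2m*, 108 ± 3.2 for *H2-D1* and 9.97 ± 1.0 for *H2-K1*, and these 3 did not overlap. *Tap1* and *Tap2* followed at 3.61 ± 0.21 and 3.38 ± 0.54 FPKM and overlapped with each other. *H2-Q4* (1.83 ± 0.41 FPKM) and *H2-T23* (1.48 ± 0.19) overlapped too, and *Psmb8*, *Psmb9* and *H2-Q2* lay lowest, between 0.193 and 0.223 FPKM on average, with overlapping libraries. In RepB-/- MEFs *H2-T23* came after *H2-K1* at 8.76 ± 0.97 FPKM and overlapped with that gene, which stood at 10.1 ± 0.87 FPKM.

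In WT liver *B2m* stood at 1498 ± 334 FPKM (SD, n = 3), *H2-D1* at 250 ± 118 and *H2-K1* at 173 ± 27.0, and the last 2 overlapped. *H2-T23* followed at 51.8 ± 4.4 FPKM. From *Psmb8* (31.0 ± 15.9 FPKM) down to *Tap1* (8.80 ± 1.5) every neighbour in the order overlapped with the next, and *H2-Q2* sat among them at 13.7 ± 6.5 FPKM. In RepB-/- liver *H2-Q2* was last at 0.461 ± 0.20 FPKM, below *Tap1* at 6.01 ± 1.4 FPKM with no overlap. The 10 genes took between 0.0550% and 0.0607% of all counts in a MEF library and between 0.207% and 0.392% in a liver library. The MEF and liver tables were made separately, and their levels are set side by side with no test.

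The stretch of chromosome 17 from *H2-K1* to *H2-M2* holds 9 of the 10 genes, at 34214991 to 37794443 in GRCm39 and 33996017 to 37483552 in GRCm38. It was chosen after its values had been seen. In MEFs 92 of its genes were tested, 39 were called (42.4%, beside 39.1% of all genes), and 8 changed over 4-fold (8.70%, beside 3.05% of all genes). *H2-T23* was the one of these 8 with a higher level in RepB-/-. The other 7 fell, among them the heat shock genes *Hspa1b* and *Hspa1a*, with log2 fold changes of -4.94 and -3.59. In liver 134 genes were tested and 0 were called in edgeR without a block (12 at an unadjusted p under 0.05, 1 with the block and 3 with DESeq2). Libraries did not overlap for 13.4% of them, beside 8.05% of all genes tested. The fitted difference was over 4-fold for 9 of them (6.72%, beside 1.49% of all genes). The class II gene *H2-Eb1* was among these 9, at 0.533, 0.298 and 5.60 CPM in RepB-/- and 12.3, 14.2 and 41.3 CPM in WT.

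**Figure D4:**
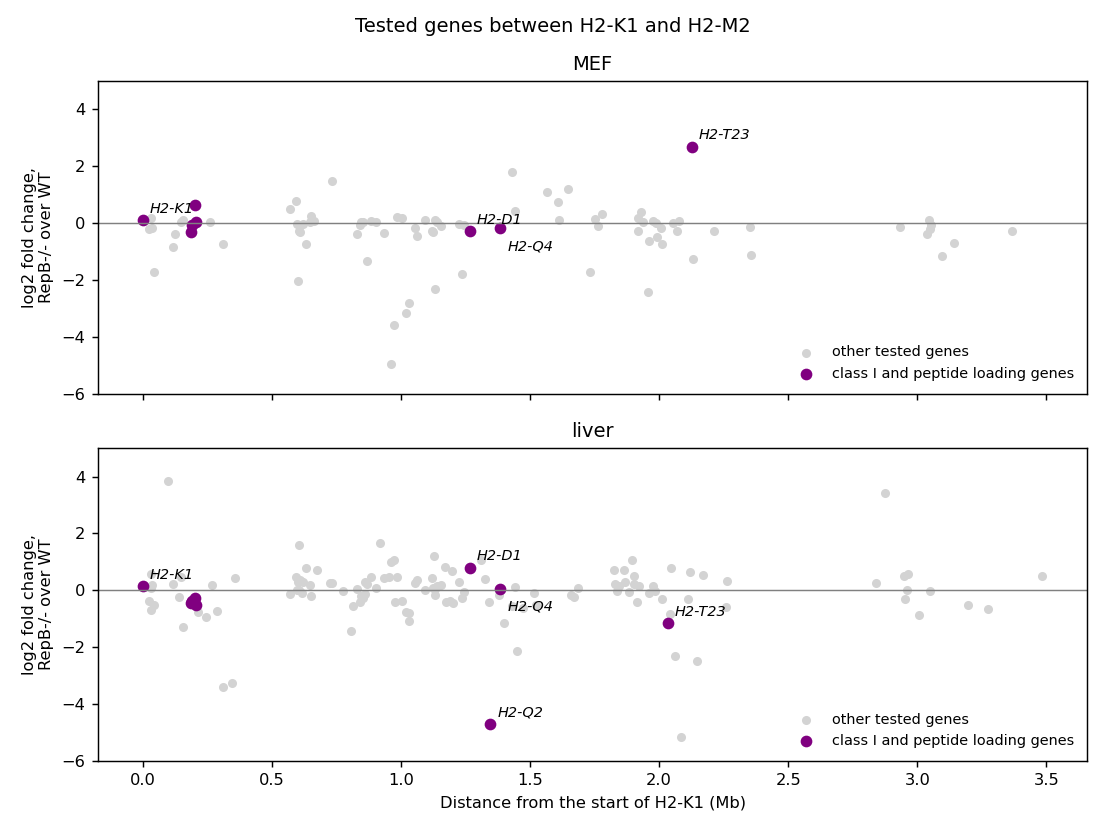
Log2 fold change of RepB-/- over WT for each tested gene of chromosome 17 against its distance from the start of *H2-K1* in Mb, MEFs above and liver below, with the class I and peptide loading genes in purple. *H2-T23* is the highest point in MEFs, and *H2-Q2* lies at -4.69 in liver.

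Close to *H2-T23* lies *H2-T22*, another nonclassical heavy chain, which moved the other way in MEFs. It stood at 15.3, 15.3 and 18.9 CPM in RepB-/- MEFs and at 39.9, 42.3 and 38.0 CPM in WT, a log2 fold change of -1.28 ± 0.10 (SE, n = 3, edgeR adjusted p = 1.7e-06). Over all *H2-T22* transcripts 53.5% of the 50-base stretches recur in other genes, mainly *H2-T10*, so its counts may be split among them, whereas for *H2-T23* the share is 14.5% and for *H2-Q4*, which recurs mainly in *Gm11131*, 36.4%. At 150 bases, the length of 1 read, the shares were 22.3%, 0.331% and 9.87%. The *H2-T22* stretches of that length recurred mainly in *A930015D03Rik* (21.9%), not in *H2-T10*. No 50-base stretch of *B2m* recurs in another gene, and *Tap1* and *Psmb9*, which overlap on opposite strands, share 3.33% and 4.19% of theirs, mostly with each other.

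Among the other antigen presentation genes in MEFs, 6 of 8 other peptide loading genes rose and 0 fell, beside 19.4% and 19.7% of all genes tested. Their median log2 fold change was 0.32, beside 0.00030 over all genes. *Erap1*, which trims peptides in the endoplasmic reticulum, rose by 0.78 ± 0.12 (SE), and the chaperones *Canx*, *Hspa5* and *Pdia3* by 0.38, 0.36 and 0.35. *Tapbp*, the gene of tapasin, which holds class I molecules at the transporter, rose by 0.28 ± 0.085 (SE, edgeR adjusted p = 0.0193). Of 10 other proteasome genes 1 rose, the activator *Psme4* (0.46 ± 0.082), and 0 fell, which is 10% called beside 39.1% of all genes, with a median log2 fold change of 0.015. The constitutive subunits *Psmb5*, *Psmb6* and *Psmb7* and the immunosubunit *Psmb10* gave -0.07, -0.05, -0.17 and 0.29 and did not pass.

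Of 10 other class I heavy chains and MHC-like genes tested 3 rose and 1 fell, a share of 40% called that lay near the 39.1% of all genes, with a median log2 fold change of 0.21. Those that rose were *H2-Q6* (1.81 ± 0.66, at most 1.07 CPM in any library), *Cd1d1* (0.45 ± 0.17), which presents lipids, and *Hfe* (0.38 ± 0.14), which acts in iron balance, and *H2-T22* fell. Of 23 regulators of class I 8 rose and 2 fell, and the 43.5% called also lay near the 39.1% of all genes, with a median of 0.083. The kinase *Jak1* rose by 0.85 ± 0.073, the interferon receptor chain *Ifnar2* by 0.52 ± 0.087 and *Irf1* by 0.51 ± 0.12, whereas the interferon gamma receptor chain *Ifngr2* fell by 0.65 and *Irf8* fell by 1.12 on the log2 scale. *Nlrc5*, the transactivator of class I genes, gave 0.04 ± 0.24 and did not pass.

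Of 24 interferon-stimulated genes tested in MEFs 3 rose and 2 fell, which is 20.8% called beside 39.1% of all genes, with a median log2 fold change of 0.15. *Oas1a* and *Xaf1* rose by 1.02 ± 0.34 and 0.99 ± 0.21, and *Oasl1* and the chemokine *Cxcl10* fell by 3.27 and 1.67 on the log2 scale, with at most 3.29 CPM of either in any library. Of 6 class II genes tested 0 rose and *H2-DMa*, a peptide exchanger of class II, fell by 0.37, so that 16.7% were called, with a median of 0.033. Endothelial markers summed to between 13.3 and 16.2 CPM in RepB-/- MEFs and between 31.0 and 37.8 CPM in WT, without overlap. Leukocyte markers, led by *Csf1r*, summed to between 18.5 and 20.5 CPM and between 15.2 and 17.2 CPM, also without overlap. Of 4 leukocyte markers tested 1 was called higher and 1 lower, and of 4 endothelial markers 0 and 4, beside 39.1% called among all genes. Kupffer cell and macrophage markers overlapped, between 11.1 and 13.1 CPM in RepB-/- and between 10.95 and 18.5 CPM in WT. *Nkg7*, *Clec4f* and *Clec4g* had 0 counts in every MEF library, and the part of these cells in the MEF results was not tested.

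**Figure D5:**
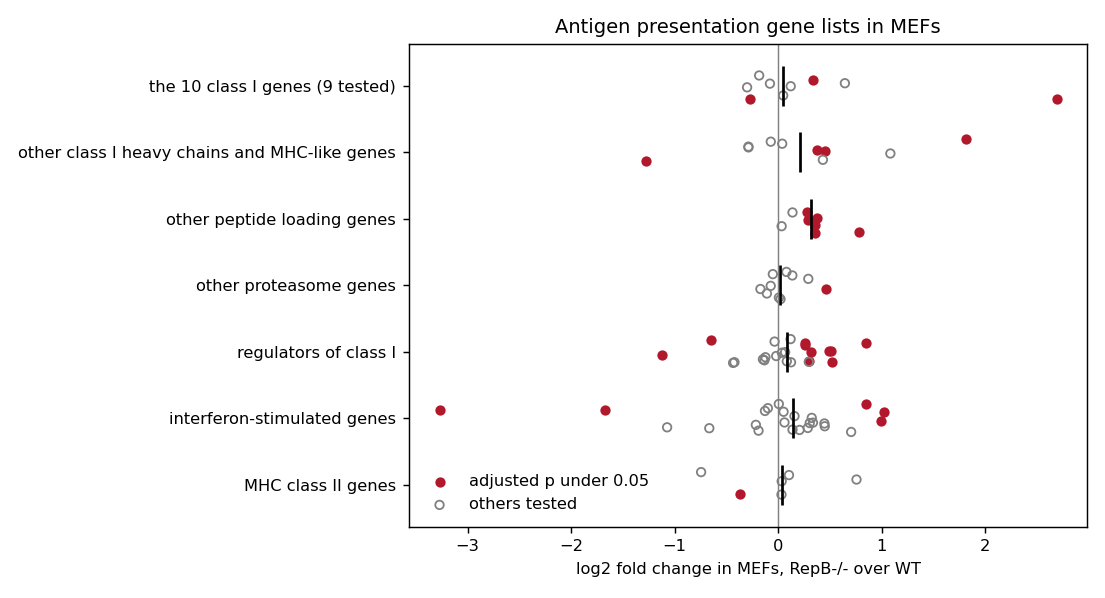
Log2 fold change of RepB-/- over WT in MEFs for every tested gene of 7 lists, filled where the adjusted p was under 0.05, with a bar at the median of each list. The other peptide loading genes, a list without *Tap1* and *Tap2*, lie above 0, and *H2-T23* lies at 2.69.

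In liver none of these 6 lists but the interferon-stimulated genes held a call without a block, and that one was the GTPase *Tgtp1*, at 2.07, 1.73 and 1.90 CPM in RepB-/- and 51.9, 32.3 and 21.3 CPM in WT. All 8 other peptide loading genes had log2 differences below 0 there, with a median of -0.22 beside 0.01 over all genes tested. *H2-Q10*, a heavy chain secreted by hepatocytes, stood at 153, 1357 and 1130 CPM in RepB-/- and 378, 1726 and 1920 CPM in WT. It was lowest in replicate 1 of both genotypes, the libraries with fetal markers.

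Genes whose profile over the 6 libraries of a tissue was most like the mean of the standardized log2 CPM of the 10 genes were ranked by Pearson's r as a description. In MEFs, over the 9 genes tested, these were *Mvb12a* (0.996), *Ptdss2* (0.992), *Utp23* (0.990), *Znfx1* (0.990) and *Epm2a* (0.987), out of 10296 genes compared. In liver they were *Tomm70a* (0.961), *Ythdc2* (0.957), *Copg2* (0.956), *Thpo* (0.953) and *Rmdn1* (0.949), out of 9978. The 6 points share their libraries, scaling and genotypes with every gene compared.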

How the data were processed

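RNA-seq of 6 MEF and 6 liver libraries was analysed, and 6 brain libraries were not analysed here. Groups were read from the library titles, where B was taken as RepB-/- and W as WT. The deposited tables give raw read counts for each gene as whole numbers, and FPKM values, which the authors derived per gene length. The 6 TPM columns of the liver table were not used. The methods name Cutadapt and Hisat2, while the submitters' processing notes name Trim Galore 0.4.1, STAR 2.7.0 and HTSeq 0.12.4, with no role for each table. Stranded libraries are stated in the methods for MEFs, and for liver this is not given in the sources used here. Of the liver gene starts 98.9% lay within 1000 bases of GENCODE M21 (GRCm38), against 3.37% of the MEF starts.

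Counts were fitted per tissue with edgeR 4.0.16 (TMM, filterByExpr, quasi-likelihood test, adjusted p threshold of 0.05 after Benjamini-Hochberg) in R 4.3.3, and both tissues jointly for the interaction. Alternatives were DESeq2 1.42.0, its size factors in edgeR, no filter, a replicate block, a term for liver replicate 1, CPM by library total and leaving out each library. Leaving out both liver replicates 1 was added after seeing the data. The genes and lists were chosen with earlier results of these data known. Named were all 10 genes, up to 4 called genes per list with the largest change in MEFs, 8 genes fixed by name (1 of them is not reported here), the 5 genes most alike per tissue among those with a mean of at least 5 CPM, and marker lists. *H2-T10*, *H2-Q1*, *Tgtp1*, *Hspa1a*, *Hspa1b*, *H2-Eb1*, *H2-Q10* and *Gm11131* were named after their values were seen. So were *H2-Bl*, *H2-Ea-ps*, *Gm10499*, *Gm11127*, *Gm8752*, *H2-Oa*, *Trim10* and *A930015D03Rik*. In simulated MEF data on 13306 genes 83.0% of 2-fold and 98.2% of 4-fold changes were called, and 15 unchanged genes. In simulated liver data on 16080 genes 0% of either were called, and 0 unchanged genes.

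Same-numbered liver libraries deviated together (correlations of 0.75, 0.41 and 0.39 after removing genotype means), so the numbers were taken as pairs there. Replicates 2 and 3 correlated more with another number (0.50 and 0.49) than with their own, so only replicate 1 stood out as a pair. Tables and figures were made with Python, numpy, pandas, scipy and matplotlib.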

Additional observations from a re-analysis of the deposited data

Results flagged for a closer look

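The genotype effect on *H2-T23* differed between tissues by a test of the difference itself. It was -3.84 ± 0.41 (SE) on the log2 scale as liver minus MEF (edgeR interaction term, adjusted p = 0.0151), with 2.69 in MEFs and -1.17 in liver. Without the liver library labelled RepB-/- replicate 2 it was -3.68. All 3 RepB-/- libraries were above all 3 WT libraries in MEFs and below them in liver. The cause was not tested.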

How the results depend on the processing

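In MEFs the calls of *H2-T23* and *B2m* held under every alternative run. Without the filter on low counts 2 of the 10 genes were called lower, as *H2-Q2* joined *H2-D1*, and leaving out single libraries gave 0 to 1 lower and 2 higher, with 3956 to 5233 genes called in all. The replicate numbers of MEFs did not pair the libraries (correlations of 0.016, -0.062 and -0.019), and the replicate block gave 5006 genes called against 5202 and changed no call of these genes.

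In liver 6 genes were called, 80 with DESeq2, 8 with the replicate block, 9 with a term for replicate 1, 2 without both replicate 1 livers, 0 without the filter in edgeR (762 at an unadjusted p under 0.05), and 0 to 4 without single libraries. Of the 10 genes 1, *H2-Q2*, was called lower with DESeq2, with the block and with the term, and 0 otherwise, and since the block chose this gene these calls are no support for it. Its log2 fold change was -4.69, -4.67 and -4.71 there, and without both replicate 1 livers its adjusted p was 0.0625. The block changed no other call of these genes in liver.

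The interaction gave 59 genes, 37 without the filter, 192 with the replicate block, 1372 without both replicate 1 livers and 1 to 428 without single libraries, and 0 to 1 of the 10 genes lower. *H2-T23* kept its direction in all of these.

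Signs turned only for genes that did not pass the test. Over single libraries left out, MEF *Tap2* ranged from -0.048 to 0.22. In liver *H2-K1* ranged from -0.25 to 0.47, *H2-Q4* from -0.17 to 0.27, *B2m* from -0.0034 to 0.99 and *Psmb8* from -0.41 to 0.11, and *Psmb8* was 0.079 without both replicate 1 livers. In the interaction *H2-K1* ranged from -0.41 to 0.33, *B2m* from -0.34 to 0.62 and *Psmb9* from -0.46 to 0.034, *H2-K1* was -0.063 with the replicate block, and without both replicate 1 livers *Tap1* was 0.010 and *Psmb9* 0.070. Scaling by library total moved 3 of 40 mean levels by more than their SD. The causes of these shifts were not tested. In liver the spread limits what could be called, as the biological coefficient of variation was 51.2% against 9.06% in MEFs, and 33.7% with the block.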
